A study of Mus musculus with 5 samples.

Results

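The gene for p53, its antagonist Mdm2 and 8 classic p53 targets were followed in natural killer (NK) cells of mouse spleen after CRISPR editing. The 10 genes were chosen by symbol: Trp53, Mdm2, Cdkn1a, Ccng1, Phlda3, Bax, Bbc3, Pmaip1, Sesn1 and Trp53inp1. Each symbol matched 1 Ensembl ID among the 56691 in the table, and all 10 had enough counts to be tested, as did 30580 genes in all. The libraries comprised 3 labelled Fli1 KO and 2 labelled NTC, numbered within each group. All came from NK cells of the spleen and were made from total RNA with an enrichment kit, in which probes capture the transcripts to be sequenced. Fli1 is an ETS-family transcription factor, and NTC is the control of the editing. Neither the guides nor the strain, age and sex of the mice, the time after editing, the culture or any pooling of mice is stated in the labels. Whether the NTC guide cuts the genome is not stated there either, so DNA cutting and loss of Fli1 cannot be told apart. Since separate mice or cultures are not stated, p-values cover the spread among these 5 libraries, which may be technical.

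Mdm2 was the 1 gene of the 10 that passed the test. It was 1.61-fold higher in Fli1 KO than in NTC libraries. Cdkn1a, which encodes the cell cycle inhibitor p21, was also higher in each Fli1 KO library than in either NTC library, but with a wide spread it did not pass. RNA of p53 itself and of the death genes Bax, Bbc3 and Pmaip1 did not pass in either direction. The wider set of p53 targets held 1 gene that rose, Plk3, and 1 that fell, Hic1.

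p53 is a transcription factor that is made continuously and destroyed continuously. Mdm2, an E3 ubiquitin ligase, binds it and marks it for the proteasome. DNA breaks, including those made by a nuclease such as Cas9, activate the kinases ATM, ATR and CHK2, which phosphorylate p53 and release it from Mdm2. p53 then binds DNA elements made of paired half-sites and raises the transcription of genes that stop the cell cycle, repair DNA, limit growth or start apoptosis. Mdm2 is among these genes, which closes a negative feedback loop. p53 is controlled largely through the stability of its protein, which RNA counts do not measure. Mdm2 and Cdkn1a are also transcribed under the control of other factors, growth factor signalling among them.

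Sequence around the transcript starts is shown for the members whose windows hold a half-site of the element that p53 reads. RefSeq promoter windows (GRCm38.p6, 250 bases before to 50 after a start, 300 bases in all) were matched for 8 of the 10 genes, with 12 windows between them. They were searched on both strands for an exact match to the p53 half-site consensus of 10 letters. At least 1 match was found for 6 of the 8 genes, against 9.55% of the 27025 genes in the table and 8.36% of its 32851 windows. The Mdm2 window and the first of the Cdkn1a windows are printed whole, because these genes had the largest differences. They read 5′ to 3′ in the direction of transcription. Capitals mark the exact matches, and half-sites with a mismatch are not marked.
Mdm2 (chr10:117710709-117711008, minus strand): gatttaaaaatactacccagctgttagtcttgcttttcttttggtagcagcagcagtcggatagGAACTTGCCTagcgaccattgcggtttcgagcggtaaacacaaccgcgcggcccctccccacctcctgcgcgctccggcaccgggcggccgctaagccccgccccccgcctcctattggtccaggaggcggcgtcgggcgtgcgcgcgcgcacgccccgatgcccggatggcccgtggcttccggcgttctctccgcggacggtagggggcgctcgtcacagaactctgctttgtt
Cdkn1a (chr17:29090729-29091028, plus strand): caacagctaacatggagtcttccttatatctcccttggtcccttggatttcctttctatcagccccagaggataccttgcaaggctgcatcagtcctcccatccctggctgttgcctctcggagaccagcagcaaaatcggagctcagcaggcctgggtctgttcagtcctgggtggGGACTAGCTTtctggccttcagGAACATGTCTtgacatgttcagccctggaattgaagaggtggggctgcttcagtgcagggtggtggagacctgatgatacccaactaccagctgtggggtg
The Mdm2 window held 1 half-site, which began 186 bases before the start. In the first of the Cdkn1a windows 2 half-sites began 73 and 51 bases before the start, with 12 bases between them. The second Cdkn1a window held 0. For the other 4 genes with a match, 40 bases around it are shown.
Trp53 (chr11:69580269-69580308, plus strand): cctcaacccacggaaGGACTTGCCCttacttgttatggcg
Ccng1 (chr11:40755447-40755486, minus strand): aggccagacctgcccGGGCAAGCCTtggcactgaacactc
Bax (chr7:45467075-45467114, minus strand): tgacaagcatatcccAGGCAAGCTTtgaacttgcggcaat
Sesn1 (chr10:41887251-41887290, plus strand): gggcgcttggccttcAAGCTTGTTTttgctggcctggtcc
These half-sites began 75 bases before the start in Trp53, 185 in Ccng1, 201 in Bax and 173 in the second of the Sesn1 windows. Phlda3 and Bbc3 had no exact match in their windows. The letters CCGGAA, a form of the site that ETS factors read, were found in the window of Mdm2 alone among these genes and in 14.9% of all windows. The core GGAA, which CCGGAA contains, was found in 96% of all windows and for all 8 genes. A match describes the letters of a window and does not show that a factor bound there. Sequence outside the windows, introns further downstream included, was not searched, so any p53 element there would be missed.

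The libraries held 4718390 to 5643791 counts. Levels are given as counts-per-million (CPM) scaled with TMM factors, and differences as log2 fold changes of Fli1 KO over NTC from edgeR's quasi-likelihood test, with p adjusted by the Benjamini-Hochberg method over all 30580 tested genes. A gene was called at an adjusted p under 0.05. The test called 167 genes in all, 140 higher and 27 lower. With library size alone it called 92 higher and 71 lower, and among genes over 3 times background 137 higher and 59 lower. A repetitive locus, Gm10800, took 13.8% to 16.4% of the counts in Fli1 KO libraries, against 10.3% and 19% in NTC 1 and NTC 2. The NTC libraries differed more from each other than any pair of Fli1 KO libraries did: the chi-square per gene was 10.6, against 2.18 to 3.48. These values include Gm10800, whose part in them was not tested. Background, read as the density of counts per kb of exon on 1453 receptor genes of smell and pheromone sensing, was 1.39 to 1.78 CPM per kb. Fli1 RNA averaged 357 ± 34.9 CPM in Fli1 KO (SD, n = 3) and 301 ± 30.6 CPM in NTC libraries (SD, n = 2; adjusted p = 0.641), so RNA level did not check the labels. A guide's edit need not lower the RNA. All 10 NK markers were over 3 times background (Ncr1 by 115 times, Klrb1c by 57.7 times). Their sums, mostly Gzma and Prf1, were 8509, 5887 and 7126 CPM in Fli1 KO 1, 2 and 3, against 6276 and 4448 CPM in NTC 1 and NTC 2. None of the 10 was called. At an unadjusted p under 0.05 in edgeR 3 were higher (Eomes, Gzma and Prf1) and 3 lower (Ncr1, Tbx21 and Cd7). That is 60% of the markers, against 8.94% of all tested genes and 18.3% of those over 3 times background. Of other cells, Cd3e, Lyz2 and S100a8 lay between 0.658 and 1.18 times background. Trac, Lef1, Cd68 and Itgax lay at 3.45, 6.82, 7.16 and 38.6 times background. Of 9 T cell markers 2 were over 3 times background, and their summed level, mostly Lef1, was 150 to 169 CPM in Fli1 KO and 124 and 144 CPM in NTC libraries. Of 7 B cell markers 0 were, with sums of 53 to 58.1 CPM in Fli1 KO and 54.3 and 66.6 CPM in NTC. Of 8 myeloid markers 2 were, with sums of 334 to 355 CPM in Fli1 KO, mostly Itgax, and 359 and 240 CPM in NTC. Of 7 erythroid markers 0 were, with sums of 8.92 to 13.9 CPM in Fli1 KO and 14.6 and 14 CPM in NTC, Hba-a2 being at 0 in Fli1 KO and Hba-a1 in NTC. The part of other cells in the results was not tested. In bulk samples, fewer cells of a type and less RNA per cell cannot be told apart.

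**Figure D1:**
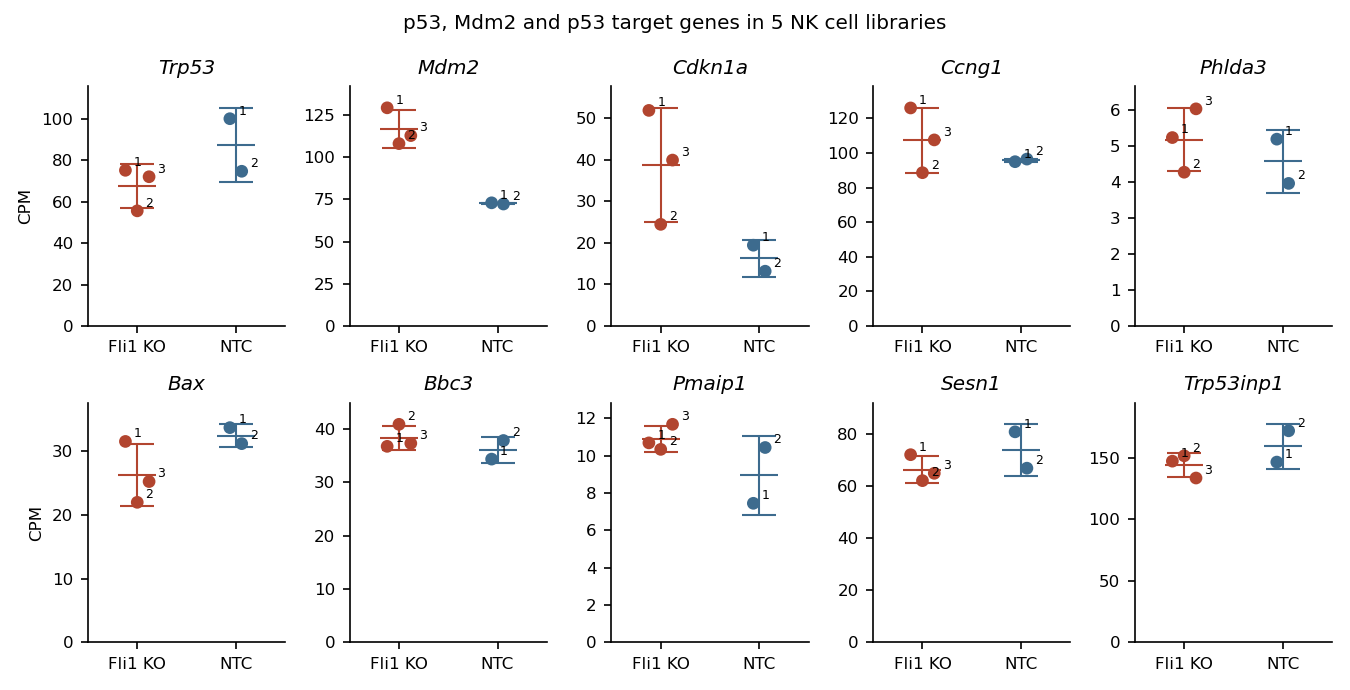
CPM of the 10 genes in each library (vertical axes, each from 0), with Fli1 KO libraries in red and NTC libraries in blue. Points carry the replicate number, the long bar is the mean and the whiskers are 1 SD (n = 3 and n = 2). Only for Mdm2 and Cdkn1a do all Fli1 KO points lie on one side of both NTC points.

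Mdm2 (ENSMUSG00000020184, GRCm38 chromosome 10, 117688875 to 117710758) had 129, 108 and 113 CPM in Fli1 KO 1, 2 and 3, against 73.0 and 72.3 CPM in NTC 1 and NTC 2. The groups did not overlap, and the NTC libraries were within 1.01-fold of each other. Mdm2 averaged 117 ± 11.1 CPM over the 3 Fli1 KO libraries and 72.6 ± 0.503 CPM over the 2 NTC libraries (± SD). The log2 fold change was 0.68 (SE 0.14, 95% interval 0.40 to 0.97), with an edgeR adjusted p = 0.0166. These values rest on 346 to 641 counts per library, 12.4 times background on average. Mdm2 was not called without Fli1 KO 1 (0.61, adjusted p = 0.218), without Fli1 KO 3 (0.72, adjusted p = 0.194), without NTC 2 (0.68, adjusted p = 0.0626) or with library size alone as the scaling (0.55, adjusted p = 0.0554).

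Trp53 (ENSMUSG00000059552, chromosome 11, 69580359 to 69591873), the gene for p53, had 75.3, 55.6 and 72.1 CPM in Fli1 KO 1, 2 and 3, against 100 and 74.8 CPM in NTC 1 and NTC 2. Fli1 KO 1 lay just above NTC 2, so the groups overlapped, with NTC 1 the highest library. The log2 fold change of −0.37 (SE 0.16, 95% interval −0.70 to −0.05) had an adjusted p = 0.456. Without NTC 1 it was −0.13. A processed pseudogene, Trp53-ps, had 1.21 to 2.02 CPM in Fli1 KO and 1.88 and 2.25 CPM in NTC libraries. Reads that fit both genes may have been counted for either.

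Mdm4, the relative of Mdm2 that blocks p53 without marking it for destruction, had 166, 164 and 175 CPM in Fli1 KO, against 137 and 134 CPM in NTC libraries. The groups did not overlap, and the log2 fold change of 0.31 (SE 0.13, 95% interval 0.04 to 0.58) did not pass (adjusted p = 0.457). Trp63 and Trp73, which encode the other 2 members of the p53 family, stood at 1.13 and 0.731 times background and thus could not be told from it. Of the remaining regulators of p53 and sensors of DNA damage, 32 genes such as the kinases Atm and Chek2 and the deubiquitinase gene Usp7, edgeR, DESeq2 and limma-voom each called 0. In edgeR 3 of the 32 had an unadjusted p under 0.05, or 9.38%, against 8.94% of all tested genes. Most of the list, 25 genes, lay over 3 times background, where 18.3% of tested genes had such a p. The median log2 fold change of the 32 was 0.08, where that of all tested genes was −0.02 and that of the 7603 tested genes over 3 times background was 0.11. The smallest p values were those of Chek1 (0.48, adjusted p = 0.462), the checkpoint kinase of replication stress, the acetyltransferase gene Kat5 (0.35, adjusted p = 0.469) and the kinase gene Atr (0.31, adjusted p = 0.494). Cdkn2a, whose product p19ARF holds Mdm2 in check, had 2.02 to 2.85 CPM in Fli1 KO and 2.43 and 3.13 CPM in NTC libraries, 1.44 times background. Without NTC 1, 1 gene of this list was called, the histone gene H2afx, where 877 of 32877 tested genes were, so this count is near the share over all genes. H2afx had 277, 182 and 261 CPM in Fli1 KO, against 304 and 124 CPM in NTC libraries.

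Cdkn1a (ENSMUSG00000023067, chromosome 17, 29090976 to 29100727) encodes p21, which binds cyclin-dependent kinases and holds cells in G1. It had 51.9, 24.4 and 39.9 CPM in Fli1 KO 1, 2 and 3, against 19.4 and 13.2 CPM in NTC 1 and NTC 2. The groups did not overlap, but the Fli1 KO libraries spread 2.12-fold and the lowest of them lay near the higher NTC library. Cdkn1a averaged 38.7 ± 13.7 CPM over the 3 Fli1 KO libraries and 16.3 ± 4.42 CPM over the 2 NTC libraries (± SD). This 2.35-fold difference had a log2 value of 1.23 (SE 0.33, 95% interval 0.47 to 1.99) and an edgeR adjusted p = 0.266. DESeq2 called it (1.26, adjusted p = 0.00394), as did edgeR without Fli1 KO 2 (1.5, adjusted p = 4.9e-04), and limma-voom did not (1.18, adjusted p = 0.0706). It was not called by edgeR without Fli1 KO 1 (0.97, adjusted p = 0.279) or without Fli1 KO 3 (1.23, adjusted p = 0.522). The log2 fold change was 1.57 without NTC 1 and 0.995 without NTC 2. Fli1 KO 2 was the lowest Fli1 KO library and NTC 1 the higher NTC library, so leaving out either widens the difference. An antisense transcript, AC167363.2, shares 7.68% of the exon bases of Cdkn1a and had at most 1.67 CPM in any library.

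The genes that p21 lowers were examined next. p21 acts through the DREAM complex, which shuts off genes of DNA replication and mitosis. Of 22 such genes, all tested, edgeR, DESeq2 and limma-voom each called 0. In edgeR 0 had an unadjusted p under 0.05, where 8.94% of all tested genes did. The groups overlapped in all 22, where 25.6% of all tested genes did not overlap. Among the 7603 tested genes over 3 times background, where 20 of the 22 lay, these shares were 18.3% and 34.1%. The median log2 fold change of the 22 was 0.06, against −0.02 for all tested genes and 0.11 for those over 3 times background. The summed level of the list was 2427, 1733 and 2629 CPM in Fli1 KO 1, 2 and 3, against 3102 and 1565 CPM in NTC 1 and NTC 2. The library lowest in these genes in each group, Fli1 KO 2 and NTC 2, was also the lowest in Cdkn1a in its group. The part of this difference between libraries in the Cdkn1a result was not tested. Plk1, the mitotic kinase, had the smallest p (−0.50, adjusted p = 0.692), followed by the spindle checkpoint kinase Bub1 (0.17, adjusted p = 0.850) and the centromeric histone gene Cenpa (0.13, adjusted p = 0.870). The direction of the list turned with the NTC library left out. Without NTC 1 the median was 0.60 and 8 of the 22 were called higher, where 703 of 32877 tested genes were. Without NTC 2 the median was −0.31 and Plk1 alone was called, lower (−0.85).

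**Figure D2:**
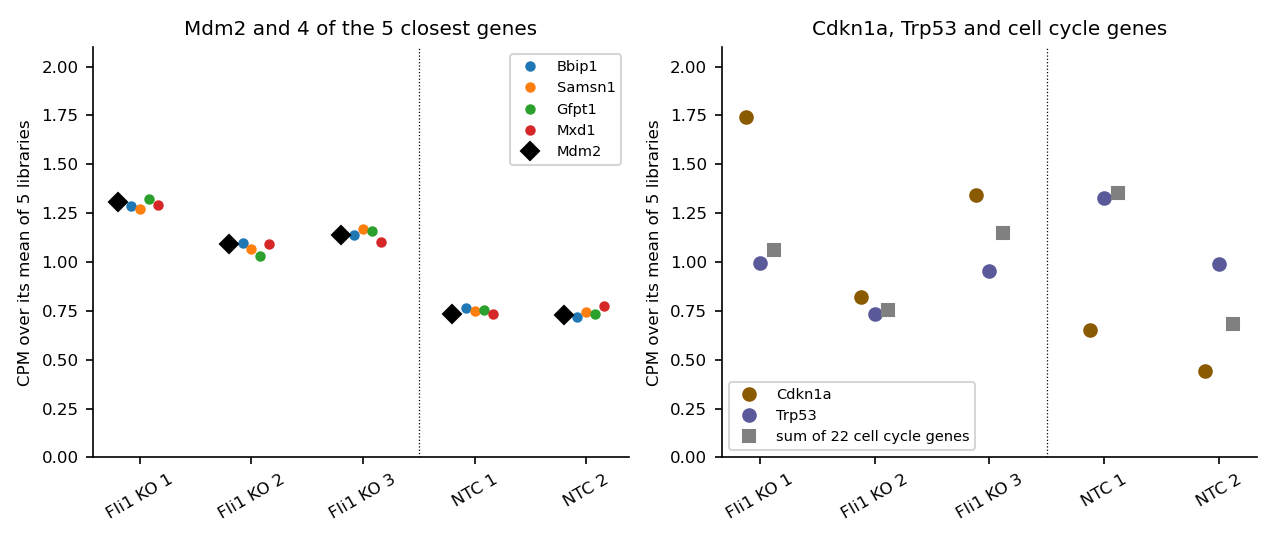
Level in each library divided by the mean of the 5 libraries (vertical axes, a ratio of CPM), with Fli1 KO libraries left of the dotted line and NTC libraries right of it. Left, Mdm2 (diamonds) and 4 of the 5 genes closest to it. Right, Cdkn1a and Trp53 (circles) and the sum of 22 cell cycle genes (squares), which is lowest in Fli1 KO 2 and NTC 2 within each group.

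The relatives of p21 are Cdkn1b (p27) and Cdkn1c (p57). Cdkn1b averaged 196 ± 15 CPM in Fli1 KO (SD, n = 3) and 190 ± 13.1 CPM in NTC libraries (SD, n = 2), with a 95% interval of −0.23 to 0.32 for the log2 fold change. Cdkn1c was at 1.74 times background, with 4.93 ± 0.684 CPM in Fli1 KO and 6.55 ± 0.191 CPM in NTC. Neither was called (adjusted p = 0.959 and 0.705).

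Ccng1 (ENSMUSG00000020326, chromosome 11, 40748552 to 40755311) encodes cyclin G1, which brings the phosphatase PP2A to Mdm2. It had 126, 88.6 and 108 CPM in Fli1 KO 1, 2 and 3, against 95 and 96.5 CPM in NTC 1 and NTC 2. Both NTC libraries lay between the lowest and the highest Fli1 KO library. The log2 fold change was 0.17 (SE 0.15, 95% interval −0.14 to 0.47, adjusted p = 0.804), which does not reach the Mdm2 estimate of 0.68 at its upper bound. Its relative Ccng2, a cyclin raised in resting cells, had 113 ± 15 CPM in Fli1 KO and 97.5 ± 23.2 CPM in NTC (adjusted p = 0.749).

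Phlda3 (ENSMUSG00000041801, chromosome 1, 135766119 to 135769136), whose product competes with the kinase AKT for membrane lipids, had 5.25, 4.28 and 6.05 CPM in Fli1 KO, against 5.20 and 3.97 CPM in NTC libraries. These are 19 to 30 counts per library and 2.02 times background, and the interval of its log2 fold change ran from −0.44 to 0.76 (adjusted p = 0.929). A difference of the size of Mdm2 was not detectable at this depth. Phlda1 had 14.9, 12.5 and 14.3 CPM in Fli1 KO, against 9.71 and 10.0 CPM in NTC libraries, without overlap (0.49, SE 0.20, adjusted p = 0.440). Phlda2 rested on 3 to 18 counts per library, 1.20 times background, and gave no firm value (adjusted p = 0.317).

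The death genes of the set act at the mitochondrial membrane. Bax (ENSMUSG00000003873, chromosome 7, 45461697 to 45466898), which forms the pore that frees cytochrome c, had 31.5, 21.9 and 25.2 CPM in Fli1 KO 1, 2 and 3, against 33.6 and 31.1 CPM in NTC 1 and NTC 2. Fli1 KO 1 lay between the NTC libraries and the other 2 below them. The log2 fold change was −0.31 (SE 0.17, 95% interval −0.66 to 0.04, adjusted p = 0.611). A second protein-coding gene, Gm45808, shares 12.2% of the exon bases of Bax on the same strand and was at 0 counts in every library. How reads of those bases were counted is not known, so the level of Bax is uncertain.

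Bbc3 (ENSMUSG00000002083, chromosome 7, 16308393 to 16318205) encodes PUMA, a BH3 protein that disarms the guardians of the BCL2 family. It had 36.7, 40.8 and 37.3 CPM in Fli1 KO, against 34.3 and 37.8 CPM in NTC libraries. It varied least of the 10 genes over the 5 libraries, and its interval of −0.21 to 0.39 (log2 fold change 0.09, SE 0.15, adjusted p = 0.919) lay wholly below the Mdm2 estimate. Pmaip1 (ENSMUSG00000024521, chromosome 18, 66458533 to 66465565), which encodes NOXA, the BH3 partner of MCL1, had 10.7, 10.3 and 11.7 CPM in Fli1 KO, against 7.46 and 10.4 CPM in NTC libraries. NTC 2 lay within the Fli1 KO libraries and NTC 1 below them. The log2 fold change was 0.30 (SE 0.22, 95% interval −0.16 to 0.75, adjusted p = 0.751), at 2.36 times background.

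Bak1, which forms the same pore as Bax, had 75.4 ± 13.6 CPM in Fli1 KO (SD, n = 3) and 62.7 ± 18.7 CPM in NTC libraries (SD, n = 2; adjusted p = 0.731). Its log2 fold change was 0.62 without NTC 1 and −0.0049 without NTC 2. Bok was at 0.899 times background. Of 17 other genes of the BCL2 family and of the apoptosome, edgeR, DESeq2 and limma-voom each called 0. In edgeR 1 had an unadjusted p under 0.05, a share below the 8.94% of all tested genes, and the median log2 fold change was 0.10. That 1 gene was Mcl1, a short-lived survival factor, with 500, 431 and 449 CPM in Fli1 KO, against 347 and 327 CPM in NTC libraries (0.45, SE 0.14, adjusted p = 0.231). The caspase inhibitor gene Xiap had the next smallest p, with 158, 132 and 136 CPM in Fli1 KO, against 127 and 112 CPM in NTC libraries (0.25, adjusted p = 0.634). The survival gene Bcl2 had 431, 368 and 461 CPM in Fli1 KO, against 443 and 285 CPM in NTC libraries. Without NTC 1 the median of this list was 0.27, where that of all genes fitted was −0.012. Without NTC 2 the median of the list was −0.0085.

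Sesn1 and Trp53inp1 encode stress proteins that slow growth. Sesn1 (ENSMUSG00000038332, chromosome 10, 41809935 to 41908424), a sestrin that restrains mTORC1, had 72.0, 62.1 and 64.9 CPM in Fli1 KO, against 80.8 and 66.8 CPM in NTC libraries (log2 fold change −0.16, SE 0.14, 95% interval −0.45 to 0.13, adjusted p = 0.802). Trp53inp1 (ENSMUSG00000028211, chromosome 4, 11156431 to 11174379), a partner of p53 that also acts in autophagy, had 147, 151 and 133 CPM in Fli1 KO, against 146 and 172 CPM in NTC libraries (−0.14, SE 0.13, 95% interval −0.42 to 0.14, adjusted p = 0.818). Both genes overlapped between the groups, and both intervals exclude a rise of the size of Mdm2. Sesn2, the sestrin induced by amino acid shortage, had 22.2, 18.7 and 24.6 CPM in Fli1 KO, against 16 and 17.3 CPM in NTC libraries, without overlap (0.39, SE 0.18, adjusted p = 0.524). Sesn3, the sestrin driven by FOXO factors, averaged 168 ± 12.1 CPM in Fli1 KO and 173 ± 0.925 CPM in NTC libraries (adjusted p = 0.960), and Trp53inp2, a relative of Trp53inp1 that acts in autophagy, was at 1.59 times background (adjusted p = 0.797).

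**Figure D3:**
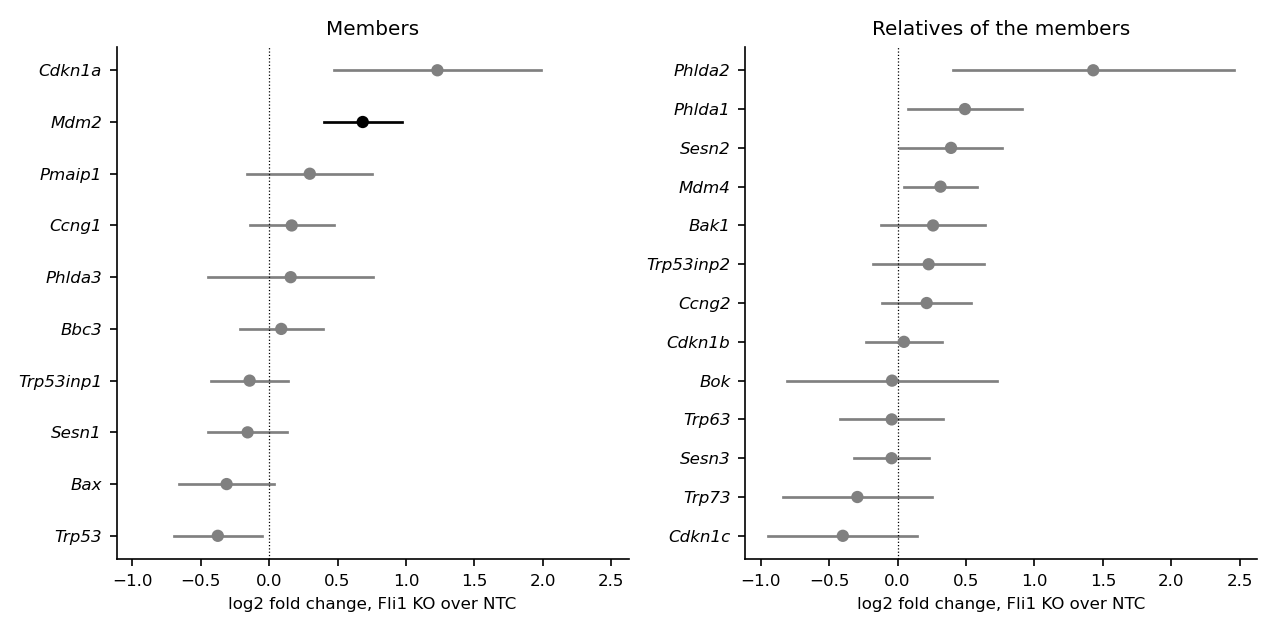
Log2 fold change of Fli1 KO over NTC (horizontal axis) for the 10 members, left, and 13 relatives, right, with 95% intervals from edgeR's quasi-likelihood fit as lines. The black point, Mdm2, is the one gene with an adjusted p under 0.05. The intervals of Phlda2, Cdkn1a, Bok and Phlda3 are the widest.

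Counted over the 10 genes, 1 was called higher and 0 lower, where 0.458% of all tested genes were called higher, 0.0883% lower and 0.546% in either direction. At an unadjusted p under 0.05, 2 were higher (Mdm2 and Cdkn1a) and 1 lower (Trp53), where 8.94% of all tested genes passed. The groups did not overlap in 2 of the 10, both higher, where 11.9% of all tested genes were higher without overlap, 13.7% lower and 25.6% either. The signs were mixed, with 6 log2 fold changes above 0 and 4 below, where 47.6% of all tested genes were above 0, and the median was 0.12, against −0.02 for all tested genes. Of the 7603 tested genes over 3 times background, where 8 of the 10 members lay, 5363 were above 0, 18.3% had an unadjusted p under 0.05 and 34.1% did not overlap. Fitted with these genes alone, the 8 members had a median of −0.15, against −0.0051 for all genes fitted. Of the 9 genes not called, the log2 fold changes ran from −0.37 to 1.23. Among the 13 relatives edgeR, DESeq2 and limma-voom each called 0. In edgeR 4 had an unadjusted p under 0.05, all of them higher (Mdm4, Phlda1, Phlda2 and Sesn2), and the median was 0.21.

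Levels per kb of exon put Mdm2 at rank 2 of the 10 in Fli1 KO and at rank 7 in NTC libraries. Capture probes can differ between genes, so the order is of captured counts. In Fli1 KO libraries Ccng1 was highest, at 30.6 ± 5.33 CPM per kb (SD, n = 3), then Mdm2 at 23.0 ± 2.19 and Trp53inp1 at 22.2 ± 1.45. The libraries of each of these genes overlapped with those of the next. Trp53inp1 did not overlap with Bbc3. Bbc3, Trp53, Sesn1 and Bax followed at 18 to 16.6 CPM per kb, each overlapping with the next, then Cdkn1a at 10.9 ± 3.87. Pmaip1 and Phlda3, at 3.99 and 3.33 CPM per kb, lay below all others and overlapped. In NTC libraries the order was Ccng1 (27.3 ± 0.303 CPM per kb, SD, n = 2), Trp53inp1, Trp53, Bax, Sesn1 and Bbc3 (17.0 ± 1.16), where Ccng1 lay above all others and the rest each overlapped with the next. Mdm2 came after all of these, at 14.3 ± 0.0989 CPM per kb, and overlapped with neither neighbour. Cdkn1a (4.58), Pmaip1 (3.28) and Phlda3 (2.94) were the lowest and each overlapped with the next.

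The wider set held 58 further p53 targets, all tested. Plk3, a polo-like kinase of the stress response, was 1 of the 2 called. It had 33.9, 19.6 and 25.8 CPM in Fli1 KO, against 10.9 and 10.0 CPM in NTC libraries (log2 fold change 1.32, SE 0.22, adjusted p = 0.00301). Hic1, a transcriptional repressor, was the other, with 26.2, 21.9 and 16.5 CPM in Fli1 KO, against 61.7 and 84.2 CPM in NTC libraries (−1.75, adjusted p = 4.5e-06). Of the 58 genes, 11 were higher and 2 lower at an unadjusted p under 0.05, where 5.23% and 3.71% of all tested genes were, and the median log2 fold change was 0.03. Among the 7603 tested genes over 3 times background, 1171 were higher and 218 lower at that p. Only 27 of the 58 lay over 3 times background. Plk3 was not called without Fli1 KO 1 (1.12, adjusted p = 0.0780).

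The next smallest p values in this set fell short of the threshold. Btg2, an antiproliferative gene and the most abundant of the set in CPM, had 535, 287 and 403 CPM in Fli1 KO, against 221 and 198 CPM in NTC libraries (0.96, SE 0.21, adjusted p = 0.0684). DESeq2 and limma-voom called it. Prkab1, a subunit of the energy sensor AMPK, had 73.8, 71.5 and 69.7 CPM in Fli1 KO, against 48.7 and 50.6 CPM in NTC libraries (0.53, SE 0.13, adjusted p = 0.0885). Polk, a DNA polymerase that copies past damaged bases, had 59.9, 50.3 and 57.2 CPM in Fli1 KO, against 38.3 and 37.4 CPM in NTC libraries (0.56, SE 0.14, adjusted p = 0.0939). Other well-known targets lay near 0 with groups that overlapped, among them Zmat3 (0.06), Ppm1d (−0.07), Ddb2 (0.09) and Aen (−0.20), which encode an RNA-binding protein, a phosphatase that resets p53, a sensor of ultraviolet damage and a nuclease. Further targets were higher at an unadjusted edgeR p under 0.05 without being called. They were Rps27l (0.58), Lif (0.56), Ephx1 (0.61), Steap3 (0.47), Tap1 (0.33), Ercc5 (0.33) and Apaf1 (0.30). Thbs1 was lower at that p and was not called either (−0.80). Zmat3, Aen, Lif, Ephx1, Steap3, Ercc5 and Thbs1 were under 3 times background.

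**Figure D4:**
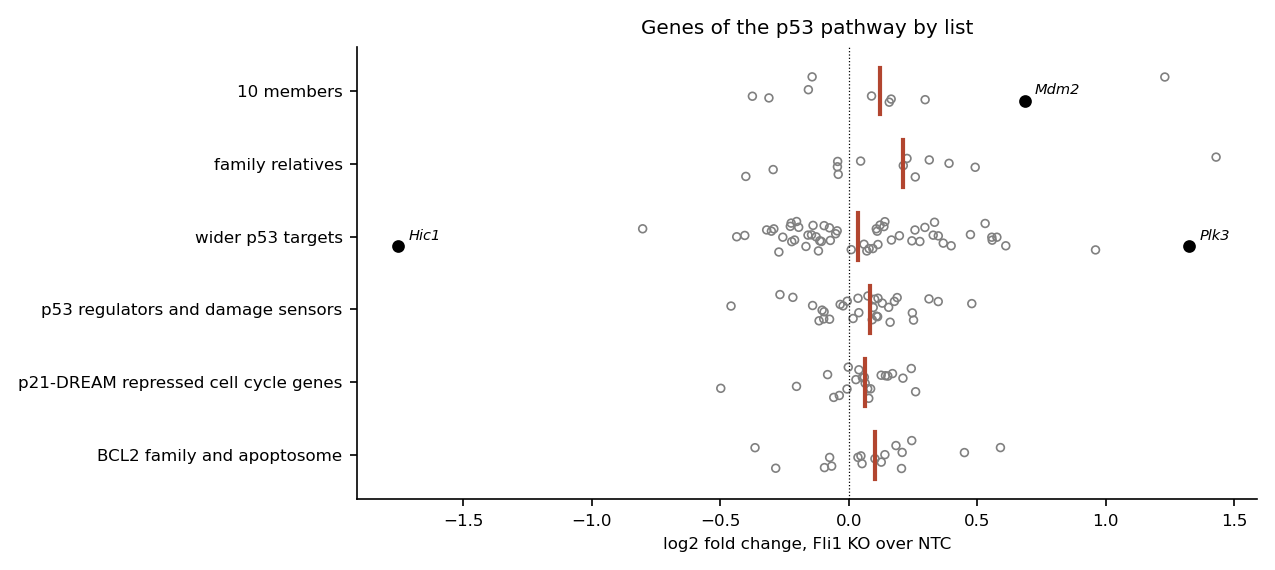
Log2 fold change of Fli1 KO over NTC (horizontal axis) for each tested gene of 6 lists. Each point is a gene, filled and named where its adjusted p was under 0.05, and red bars mark medians, which lie between 0.03 and 0.21.

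The genes most like Mdm2 over the 5 libraries were found among 14691 tested genes that averaged 5 CPM or more, by the root mean square distance between log2 CPM values centred on each gene's mean. The closest was Bbip1, a subunit of the BBSome, at a distance of 0.0289, where the spread of Mdm2 itself was 0.343. Samsn1, an adaptor of lymphocyte signalling (0.0324), Gfpt1, the first enzyme of hexosamine synthesis (0.0413), and Mxd1, a MAX-binding antagonist of MYC (0.0426), were also among the closest 5. Samsn1 had 82.7, 69.4 and 76.2 CPM in Fli1 KO, against 48.7 and 48.3 CPM in NTC libraries. Mxd1 had 112, 94.4 and 95.1 CPM in Fli1 KO, against 63.5 and 66.6 CPM in NTC libraries. Of these 4 genes, edgeR called Samsn1, Gfpt1 and Mxd1 higher and not Bbip1, where it called 0.458% of all tested genes higher. A similar difference follows from picking genes by their likeness to Mdm2 in the same libraries, so these calls are no separate result. None of the 9 other members came closer to Mdm2 than 0.263, the distance of Pmaip1. The distance also counts the size of a change, and Cdkn1a, with a larger spread of 0.699, lay at 0.406. With 5 libraries, closeness describes these samples only.

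The call on Mdm2 was checked against scaling, filter, tool and the libraries used. Its log2 fold change stayed between 0.55 and 0.76 in 14 other fits and it was called in 10 of them. That of Cdkn1a ran from 0.97 to 1.57, with a call in 4 of 14. That of Trp53 ran from −0.56 to −0.13, with a call in 1 of 14. With library size alone as the scaling, the median over all tested genes was −0.14 in place of −0.02. Bbc3 was then the one member whose sign turned, to −0.03.

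**Figure D5:**
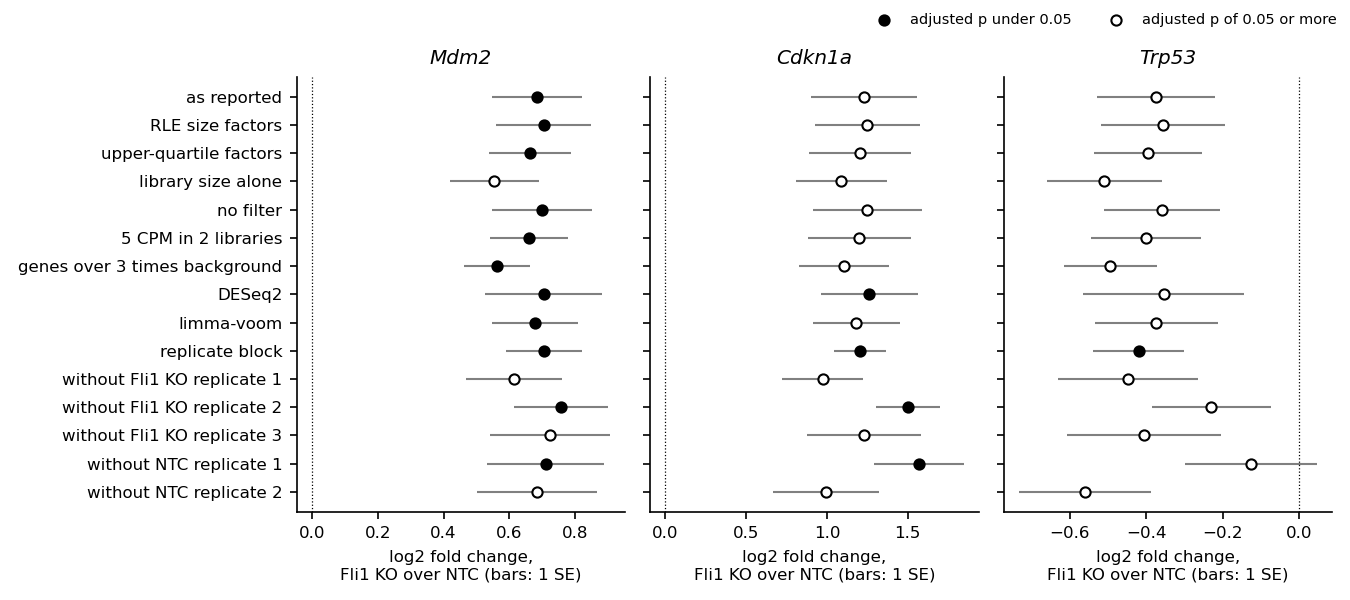
Log2 fold change of Fli1 KO over NTC (horizontal axes, bars of 1 SE) for Mdm2, Cdkn1a and Trp53 in the reported fit and 14 others. Filled points have an adjusted p under 0.05. The sign of each gene is the same in all 15 fits shown.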

How the data were processed

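The 5 libraries of splenic NK cell RNA were grouped by their titles. The authors deposited 1 table of raw counts, whole numbers for each Ensembl ID. Columns of no sample numbered 0. Per the labels' protocols, 10 ng of RNA was prepared with an enrichment kit. The submitters' processing notes name FastQC 0.12.0, Trimmomatic 0.39, STAR 2.7.11 and mm10. Not given in the sources used here were the counter, its strand setting and how shared reads were counted, so values of genes that share exon bases are uncertain.

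IDs were matched to symbols for 91.9% of the 56691 genes. Coordinates and merged exon lengths came from GENCODE M21 (GRCm38). Genes were kept with filterByExpr (minimum of 10 counts), scaled with TMM factors and tested with edgeR 4.0.16 on R 4.3.3 (robust quasi-likelihood, adjusted p under 0.05). SEs came from the coefficient and its F statistic, and 95% intervals from the SE and the t distribution. The fit was tested on simulated data. Alternatives were DESeq2 1.42.0, limma-voom (limma 3.58.1), other scalings and filters, the replicate number as a block and each library left out. Log2 CPM for distances used a prior count of 2.

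The members, the further lists (named in the text), the alternatives and the naming rule were chosen with earlier results of these data known. The text names all members and relatives, in each other list the called genes and up to 3 more with the smallest p where fewer than 3 were called, and the 5 genes closest to Mdm2. Zmat3, Ppm1d, Ddb2, Aen, Cdkn2a, H2afx, Bcl2, Atm, Chek2, Usp7 and the genes next to members were named after their values were seen. So were Rps27l, Lif, Ephx1, Steap3, Tap1, Ercc5, Apaf1, Thbs1 and several cell type markers. Some genes that this rule covers are not reported here.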

Additional observations from a re-analysis of the deposited data

How the results depend on the processing

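The count of calls depended on the libraries used more than on the scaling. All tested genes gave 167 calls, against 295 with no filter and 49 to 877 when 1 library was left out. Among the 10 members 1 gene was called, against 0 with library size alone, 2 with DESeq2 and 0 to 2 with 1 library left out. With 1 library left out the calls ran from 0 to 1 for the relatives, 1 to 6 for the wider targets, 0 to 1 for the regulators, 0 to 8 for the cell cycle genes and 0 to 2 for the BCL2 family. The cause was not tested. Without 1 NTC library the lone NTC sample is taken to vary like the Fli1 KO ones. With the replicate number as a block the calls numbered 921 over all genes (728 higher, 193 lower), 3 of the members (Mdm2 0.71, Cdkn1a 1.20 and Trp53 −0.42), 7 wider targets, 1 cell cycle gene and 2 of the BCL2 family. The labels do not say that a number marks a shared mouse or day. Deviations of same-numbered libraries correlated at 0.289 and 0.428 over 7603 genes. With 2 NTC libraries the deviations of one mirror those of the other, so these values are not independent. Fli1 KO 3, which has no same-numbered NTC library, correlated with NTC 1 at 0.199. The block is thus at most a hint from the data, and the fit without it is reported. Sign changes among members, none of them called, were those of Bbc3 (−0.03 with library size alone and −0.03 among genes over 3 times background), Phlda3 (−0.0041 without NTC 2) and Sesn1 (0.0073 without NTC 1). Library size alone moved the median of the members to −0.0020 and a fit on genes over 3 times background to −0.15, where the median of all genes fitted was −0.14 and −0.0051. With 19 to 58 counts per library, Phlda3 and Pmaip1 are limited by depth.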
